A study of Homo sapiens with 4 samples.

Results

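DEAD and DEAH box proteins are RNA helicases, enzymes that use ATP to separate RNA strands or to strip proteins from RNA. Each carries a catalytic signature called motif II or the Walker B motif, after whose amino acids the DEAD and DEAH groups are named. DEAD box members mostly open short stretches of duplex locally, whereas DEAH members move along a strand. In every cell, a T cell line included, they serve rRNA maturation in the nucleolus, splicing, mRNA export, translation, mRNA decay and the sensing of foreign RNA.

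The helicases were taken as all rows of the deposited expression table whose gene symbol begins with DDX or DHX followed by a number, with antisense genes left out and 1 further symbol not analysed here. This gave 58 of 16328 transcript rows, and 53 gene symbols. The genes DHX8, DHX30, DDX3X and DDX3Y each had more than 1 row. Rows were picked by name alone and by no measured value. The family itself was chosen with earlier results of these data known.

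Expression was measured in Jurkat, an established human T cell leukemia line, after lentiviral delivery of short hairpin RNAs (shRNA) from the pGreenPuro vector in the presence of polybrene. The 3 libraries labelled SLEAR shRNA, numbered 1 to 3, received hairpins against SLEAR, and 1 further library was labelled Control, without a statement of what it received. The series title ties SLEAR to systemic lupus erythematosus and apoptosis, and the comparison addresses what changes in RNA levels once SLEAR is knocked down. Whether the numbers 1 to 3 name different hairpins or repeats, or separate cultures, is not in the labels, so the p-values reflect library-to-library spread alone, part or all of which may be technical.

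Reads came from MAPS, a method that sequences the ends of transcripts next to the poly(A) tail, and the values are RPM, reads scaled to the library total, as deposited. Depth, estimated from the value of a single read, came to 7048623, 7524256 and 4814166 reads for SLEAR shRNA-1, -2 and -3, next to 8384888 reads for Control. SLEAR shRNA-3 stood apart, with 6890 of 16151 rows at 0, against 2631 and 2307 rows in SLEAR shRNA-1 and -2 and 2974 rows in Control. Markers of the T lineage summed to 4292 to 4519 RPM in the SLEAR shRNA libraries and 4064.3 RPM in Control. All 10 listed genes had a row, and 7 of them reached 10 RPM in at least 1 library. Marker lists of myeloid, epithelial and fibroblast cells summed to at most 3.19 RPM in any library. Only 3, 2 and 1 of the 5 genes listed for each had a row, so these sums cover part of each list. Of the 5 listed B cell genes, 3 had a row. They summed to 19.7 to 23.1 RPM in the SLEAR shRNA libraries and 12.05 RPM in Control, with CD79A the highest. No row was found for SLEAR, so the knockdown was not checked.

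The codons of motif II give the signature after which the groups are named. In the coding sequence of GENCODE 29 transcripts, a search for the motif downstream of the ATP-binding loop found it in 50 of 53 genes. It read DEAD in 28 genes, DEAH in 9, DEVH in 5, DECD, DEVD and DEIH in 2 each, and DECH and DESD in 1 each. It was not found in DHX32 or DDX26B, and DDX12P had no coding sequence to search. The windows below belong to the 8 helicases whose difference from Control exceeded the counting error of reads in every SLEAR shRNA library. Each is 30 bases of coding strand, 5′ to 3′, from the transcript sequences of GRCh38, with the 12 bases that encode motif II in capitals.
DDX18: ctggttattGATGAAGCTGATcgtatcttg
DDX17: cttgtattgGACGAAGCTGACagaatgctt
DDX19A: tttgttctgGATGAGGCTGATgtcatgata
DHX40: attattttgGATGAAGCCCATgaaagaact
DHX29: gttattgtaGATGAGGTTCATgaaagaagt
DDX39A: tttgtgctgGACGAGTGTGACaagatgctg
DDX24: ctggtagtgGATGAGGCTGACcggatggtt
DDX51: ctgattatcGACGAGGCTGACcggatgatt

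As a family the helicases did not move in 1 direction. Their rows summed to 4294, 4372 and 3982 RPM in the 3 SLEAR shRNA libraries and to 4599.6 RPM in Control. In RNA from bulk cells, fewer cells that carry a transcript and less of it per cell cannot be told apart. DDX17 alone supplied 1994, 1961 and 1861 RPM of this in the SLEAR shRNA libraries and 2241 RPM in Control. The other rows summed to 2300.5, 2411 and 2121 RPM in the SLEAR shRNA libraries and 2358 RPM in Control, so that with DDX17 set aside SLEAR shRNA-2 lay above Control and SLEAR shRNA-1 and -3 below it.

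**Figure D1:**
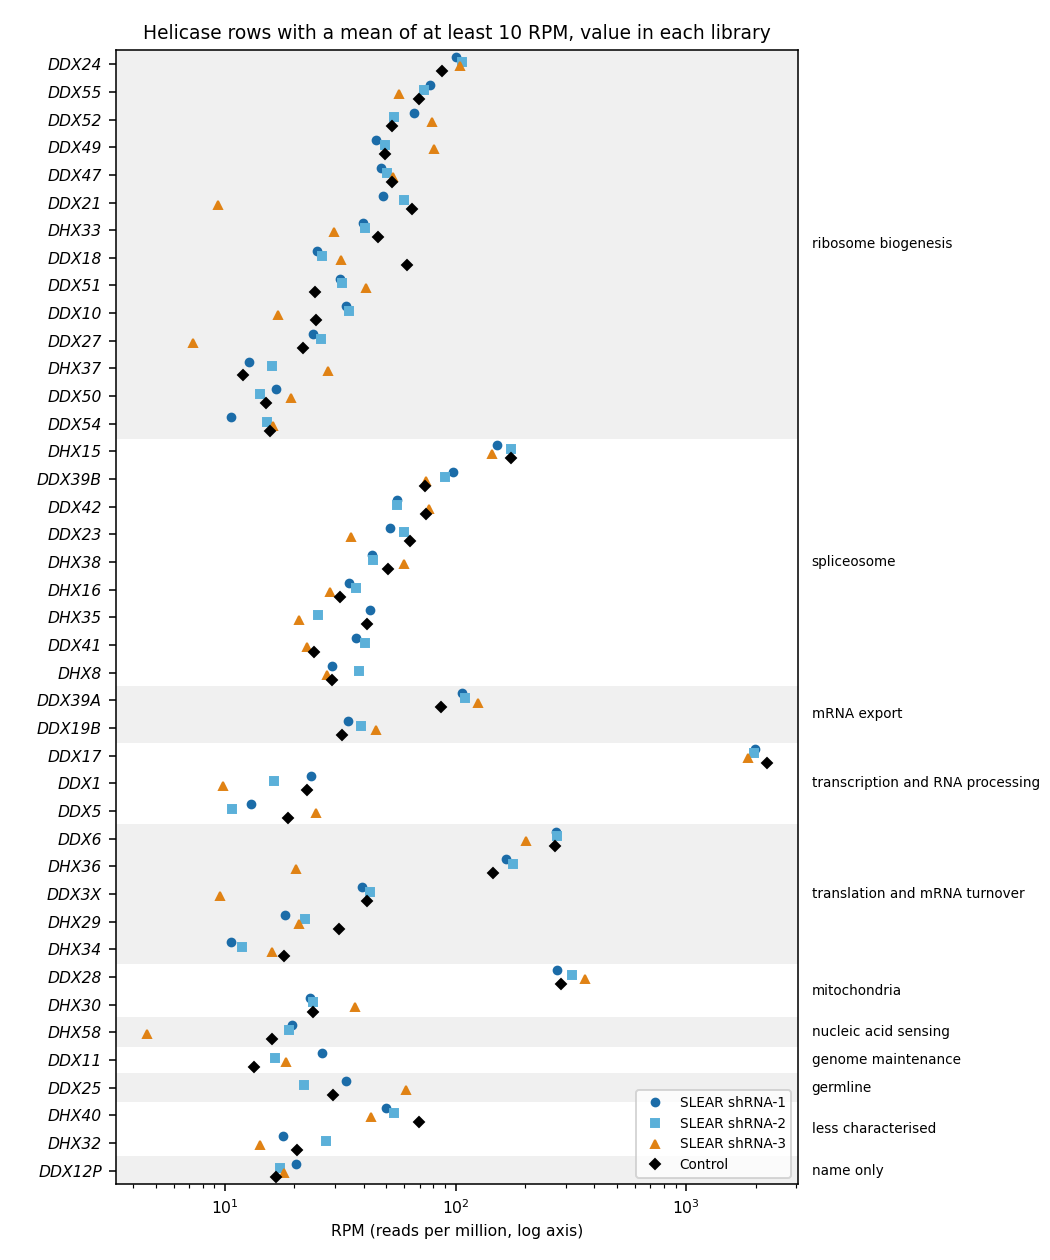
Level in RPM (log axis) of the 41 helicase rows with a mean of at least 10 RPM, in SLEAR shRNA-1, -2 and -3 and in Control, 1 point per library, grouped by role. DDX17 stands far to the right at 1861 to 2241 RPM, DDX18 shows Control well to the right of all 3 SLEAR shRNA points, and DHX36, DDX21 and DDX3X show SLEAR shRNA-3 alone far to the left.

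Of the 58 rows, 52 reached 1 RPM in at least 1 library and were tested, among 12350 rows of the whole table, by limma-trend on log2(RPM + 1) with Benjamini-Hochberg adjustment. None of the 52 passed an adjusted p of 0.05, nor did any row of the table (0.0% called). Without adjustment, 92 rows were higher and 239 lower at p under 0.05, with DDX18, on the lower side, the only helicase. Limma-voom on estimated reads called 0 rows too, and had 69 higher and 222 lower rows at that unadjusted p. Control is a single library, so the spread came from the 3 SLEAR shRNA libraries and Control was assumed to vary like them.

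Among the 41 rows with a mean of at least 10 RPM, 1 row each of 41 genes, 9 lay above Control in all 3 SLEAR shRNA libraries, 9 lay below it in all 3, and 23 were mixed. Over all 5853 rows at that level, 23.9% lay above Control in all 3 and 26.2% below it, and the helicases' shares, 22.0% each way, were near this background. The median log2 difference was -0.07 for the 41 helicases and -0.03 for all rows at that level. The helicases with a motif ending in D had 6 of 25 above and 4 below Control in all 3 libraries, with a median log2 difference of -0.02. Those ending in H had 2 of 14 above and 5 below, with a median of -0.25. This split follows the last letter alone, and the motifs ending in H include DEVH, DEIH and DECH as well as DEAH. The difference between motifs ending in D and in H was not tested.

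**Figure D2:**
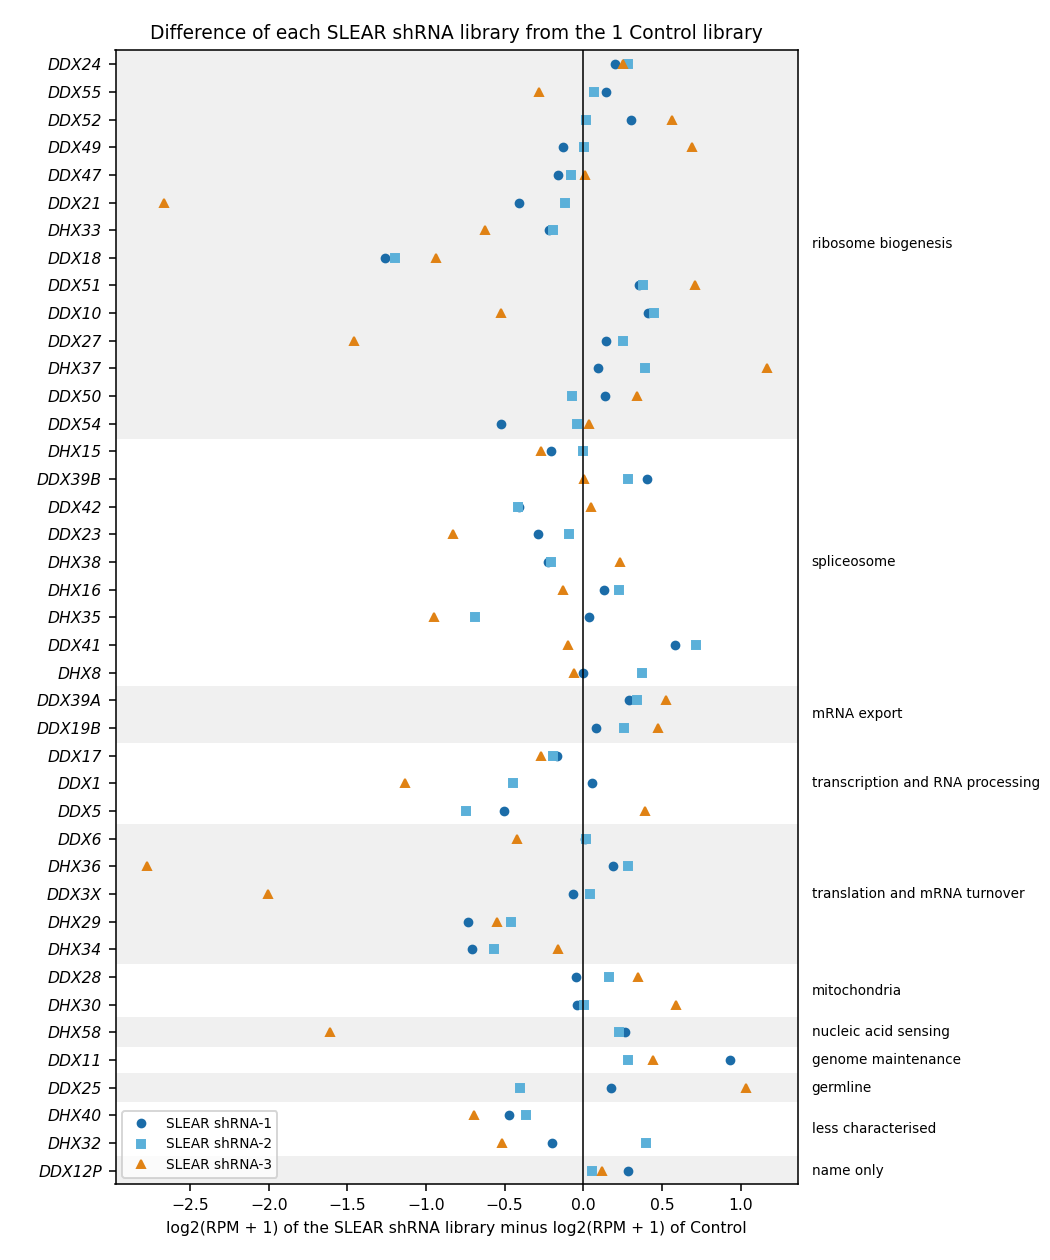
Difference on the log2(RPM + 1) scale of SLEAR shRNA-1, -2 and -3 from the single Control library for the same 41 helicase rows, grouped by role; the vertical line at 0 is Control. SLEAR shRNA-1 and -2 lie close together for most rows, while SLEAR shRNA-3 lies apart from both for DHX36, DDX21, DDX3X, DHX58 and DDX27.

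A second reading set each SLEAR shRNA library against Control by the number of reads, with exact 95% intervals of the ratio that cover counting error only. By this reading 3 of the 41 helicases lay above Control in every SLEAR shRNA library (DDX39A, DDX24 and DDX51) and 4 lay below it (DDX18, DDX17, DHX40 and DHX29). Among all rows at that level 11.5% lay above and 12.9% below, so the helicases' shares of 7.32% and 9.76% were not larger than the background. DDX19A, at a mean of 9.46 RPM just under the level minimum, also lay below Control in every library and is described because of its values.

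**Figure D3:**
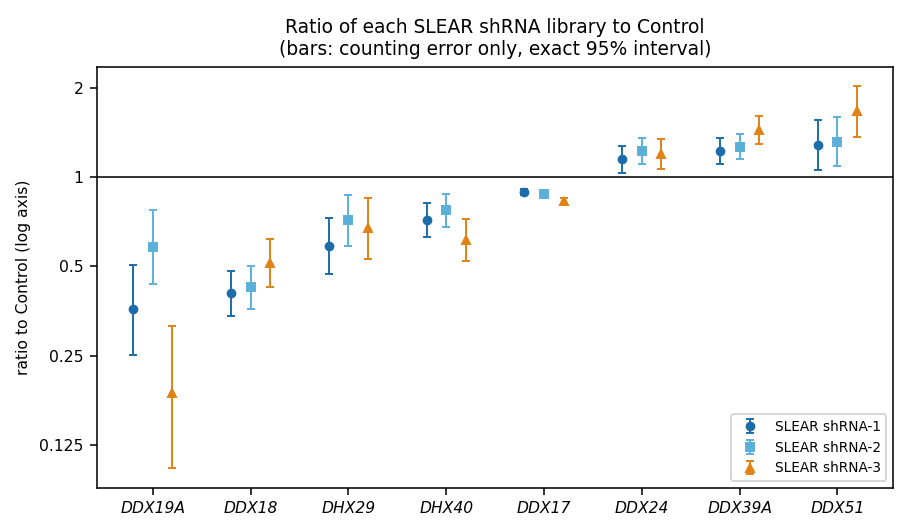
Ratio to Control (log axis) of SLEAR shRNA-1, -2 and -3 for the 8 helicases whose interval excludes 1 in every SLEAR shRNA library; bars are exact 95% intervals for counting error only, and the horizontal line is Control. DDX19A, DDX18, DHX29, DHX40 and DDX17 lie below 1 and DDX24, DDX39A and DDX51 above it, with DDX17, the deepest row, closest to 1 among those below.

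The helicases of ribosome biogenesis, 14 rows with a mean of at least 10 RPM, held the largest log2 difference of any helicase at that level. DDX18, the human counterpart of yeast Has1, which acts in rRNA processing, had 25.1, 26.3 and 31.8 RPM in the SLEAR shRNA libraries 1 to 3, against 61.7 RPM in Control. All 3 SLEAR shRNA libraries lay below Control and close to each other. Its mean was 27.7 ± 3.55 RPM (SD, n = 3), and the log2 difference of -1.13 ± 0.30 (SE) did not pass (limma-trend adjusted p = 0.993, unadjusted p = 0.0168). The ratio to Control was 0.407 (0.341 to 0.484) in SLEAR shRNA-1, on 177 estimated reads, against 517 in Control. It was 0.427 (0.360 to 0.504) in SLEAR shRNA-2 and 0.515 (0.428 to 0.618) in SLEAR shRNA-3.

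Helicases of the same role went the other way. DDX51, which acts in the maturation of the large-subunit rRNA, was at 31.6, 32.3 and 40.9 RPM in the SLEAR shRNA libraries and at 24.6 RPM in Control, a log2 difference of 0.48 ± 0.32 (SE). Its ratio to Control was 1.29 (1.06 to 1.56), 1.31 (1.09 to 1.59) and 1.67 (1.36 to 2.03). DDX24, related to yeast Mak5 of large-subunit assembly, was at 100.6, 107 and 104 RPM in the SLEAR shRNA libraries and at 87.4 RPM in Control, a log2 difference of 0.25 ± 0.19 (SE). In both genes all 3 SLEAR shRNA libraries lay above Control, and for DDX24 the spread between them was smaller than their gap to it. DDX52, whose yeast counterpart Rok1 acts on the small subunit, was at 65.8, 53.8 and 78.9 RPM in the SLEAR shRNA libraries and 53.1 RPM in Control. DHX37, of the small-subunit processome, was at 12.8, 15.9 and 28.0 RPM in the SLEAR shRNA libraries and 11.9 RPM in Control. Both lay above Control in all 3 libraries by margins that were smallest in SLEAR shRNA-1 or -2 and largest in SLEAR shRNA-3.

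On the lower side stood DDX21, a nucleolar helicase of rRNA transcription and processing, at 48.5, 59.7 and 9.35 RPM in the SLEAR shRNA libraries and 64.8 RPM in Control. Most of its difference came from SLEAR shRNA-3. DHX33, which acts in rRNA transcription, was at 39.6, 40.4 and 29.7 RPM in the SLEAR shRNA libraries and 46.3 RPM in Control. DDX50, the close relative of DDX21, was mixed, at 16.6, 14.2 and 19.3 RPM in the SLEAR shRNA libraries and 15.0 RPM in Control. Of the role as a whole, 4 of 14 rows lay above Control in all 3 libraries, 3 below and 7 were mixed, with a median log2 difference of 0.04.

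The other mixed rows of this role are named here with their counterparts in yeast. DDX55 (Spb4) was at 77.2, 73.1 and 57.1 RPM in the SLEAR shRNA libraries and 69.8 RPM in Control, and DDX47 (Rrp3) at 47.4, 50.2 and 53.6 RPM in the SLEAR shRNA libraries and 53.1 RPM in Control. DDX49 (Dbp8) was at 45.3, 49.6 and 80.4 RPM in the SLEAR shRNA libraries and 49.5 RPM in Control. DDX10 (Dbp4) was at 33.5, 34.4 and 17.0 RPM in the SLEAR shRNA libraries and 24.9 RPM in Control. These 4 have Control inside the range of the SLEAR shRNA libraries. DDX27 (Drs1) was at 24.1, 26.0 and 7.27 RPM in the SLEAR shRNA libraries and 21.7 RPM in Control. DDX54 (Dbp10) was at 10.6, 15.3 and 16.2 RPM in the SLEAR shRNA libraries and 15.7 RPM in Control. For these as well Control lay inside the range.

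Of the spliceosomal helicases, 9 rows at this level, 1 lay above Control in all 3 libraries, 2 below and 6 were mixed, with a median log2 difference of -0.06. DHX15, the counterpart of yeast Prp43 that takes the spent spliceosome apart, was at 151, 174 and 144 RPM in the SLEAR shRNA libraries and 174 RPM in Control. DDX23, the counterpart of Prp28 that lets the spliceosome form its active state, was at 51.8, 59.7 and 35.3 RPM in the SLEAR shRNA libraries and 63.6 RPM in Control. These were the 2 rows of the role below Control in all 3 libraries, DHX15 by a very narrow margin in SLEAR shRNA-2. DDX39B, also known as UAP56, which helps the branch point to be recognised and then loads export factors on mRNA, was at 97.9, 90.2 and 74.2 RPM in the SLEAR shRNA libraries and 73.8 RPM in Control. It was the 1 row of the role above Control in all 3, with SLEAR shRNA-3 level with Control. Scaling by median-ratio size factors turned DDX39B in SLEAR shRNA-3, DHX15 in SLEAR shRNA-2 and DDX47 in SLEAR shRNA-3 to the other side of Control, and no other helicase at this level left or joined the rows with 1 direction in all 3 libraries.

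Of the remodelling helicases of later steps, DHX16 (yeast Prp2) was at 34.6, 37.1 and 28.7 RPM in the SLEAR shRNA libraries and 31.5 RPM in Control. DHX38 (Prp16) was at 43.4, 44.0 and 60.0 RPM in the SLEAR shRNA libraries and 50.8 RPM in Control. The main row of DHX8 (Prp22), which releases the spliced mRNA, was at 29.1, 38.0 and 27.8 RPM in the SLEAR shRNA libraries and 29.1 RPM in Control. For these Control lay inside the range of the SLEAR shRNA libraries. DHX35, found in the catalytic spliceosome, was at 42.4, 25.3 and 21.0 RPM in the SLEAR shRNA libraries and 41.4 RPM in Control. DDX42, which binds the SF3b complex, was at 55.9, 55.6 and 76.9 RPM in the SLEAR shRNA libraries and 74.4 RPM in Control. DDX41, a spliceosomal helicase mutated in hereditary myeloid neoplasms, was at 36.9, 40.5 and 22.6 RPM in the SLEAR shRNA libraries and 24.3 RPM in Control. For these the libraries did not go the same way: DHX35 was level with Control in SLEAR shRNA-1 alone, DDX42 in SLEAR shRNA-3 alone, and DDX41 was above Control in SLEAR shRNA-1 and -2 alone.

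Both mRNA export helicases with a mean of at least 10 RPM lay above Control in all 3 libraries. DDX39A, also known as URH49 and the close relative of DDX39B, was at 107, 110.2 and 125 RPM in the SLEAR shRNA libraries and 86.8 RPM in Control. Its log2 difference was 0.39 ± 0.21 (SE), and its ratio to Control was 1.23 (1.11 to 1.36), 1.27 (1.15 to 1.40) and 1.44 (1.29 to 1.61). DDX19B, the counterpart of yeast Dbp5 that strips proteins from mRNA at the nuclear pore, was at 34.2, 38.8 and 45.3 RPM in the SLEAR shRNA libraries and 32.3 RPM in Control. Its paralog DDX19A lay on the other side, at 6.38, 10.4 and 3.32 RPM in the SLEAR shRNA libraries and 17.8 RPM in Control, a log2 difference of -1.40 ± 0.79 (SE). Its ratio to Control was 0.359 (0.251 to 0.504), 0.583 (0.438 to 0.772) and 0.187 (0.104 to 0.314), the last on 16 estimated reads, against 149 in Control. No source used here says how reads shared by such paralogs were divided, so the opposite directions of DDX19A and DDX19B are uncertain.

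DDX17, also known as p72, a partner of transcription factors that also acts in splicing and microRNA processing, was the helicase with the most reads. RPM counts reads, and how these were assigned to rows is not stated, so this orders rows by reads and not by molecules. It lay below Control in all 3 libraries by a narrow margin, with a mean of 1938 ± 69.1 RPM (SD, n = 3) after SLEAR shRNA and 2241 RPM in Control, a log2 difference of -0.21 ± 0.21 (SE). With 8959 to 14752 estimated reads in the SLEAR shRNA libraries and 18793 in Control, its ratios had narrow counting intervals: 0.890 (0.870 to 0.909), 0.875 (0.856 to 0.894) and 0.830 (0.810 to 0.852). Its paralog DDX5, also known as p68, was at 12.9, 10.8 and 24.9 RPM in the SLEAR shRNA libraries and 18.7 RPM in Control. DDX5 was thus below Control in SLEAR shRNA-1 and -2 and above it in SLEAR shRNA-3. DDX1, of the tRNA ligase complex, was at 23.6, 16.3 and 9.76 RPM in the SLEAR shRNA libraries and 22.7 RPM in Control.

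Of the helicases of translation and mRNA turnover, 0 of 5 lay above Control in all 3 libraries and 2 lay below. DHX29, which helps the small ribosomal subunit to scan structured leaders, was at 18.3, 22.3 and 21.0 RPM in the SLEAR shRNA libraries and 31.1 RPM in Control, a log2 difference of -0.58 ± 0.35 (SE). Its ratio to Control was 0.588 (0.472 to 0.729), 0.717 (0.587 to 0.874) and 0.674 (0.530 to 0.851). DHX34, a factor of nonsense-mediated decay, was at 10.6, 11.8 and 16.0 RPM in the SLEAR shRNA libraries and 18.0 RPM in Control. For DHX29 all 3 libraries stood together below Control, whereas for DHX34 SLEAR shRNA-3 came close to it. DDX6, the P-body helicase of decapping and repression, was at 273, 274 and 202 RPM in the SLEAR shRNA libraries and 270.5 RPM in Control. DHX36, which unwinds G-quadruplexes, was at 166, 177 and 20.4 RPM in the SLEAR shRNA libraries and 145 RPM in Control. DDX3X, a helicase of translation initiation, was at 39.4, 42.5 and 9.56 RPM in the SLEAR shRNA libraries and 41.3 RPM in Control. In the last 3 SLEAR shRNA-1 and -2 stayed near Control or above it, and SLEAR shRNA-3 alone was low.

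DHX40, a helicase with no firmly assigned role, was at 50.1, 54.0 and 42.8 RPM in the SLEAR shRNA libraries and 69.8 RPM in Control, a log2 difference of -0.51 ± 0.26 (SE). All 3 SLEAR shRNA libraries lay below Control, with ratios of 0.718 (0.627 to 0.821), 0.773 (0.680 to 0.879) and 0.613 (0.521 to 0.720). DHX32, also little characterised, was at 17.9, 27.5 and 14.1 RPM in the SLEAR shRNA libraries and 20.6 RPM in Control. The mitochondrial helicases DDX28 and DHX30, both needed for assembly of the mitochondrial ribosome, were mixed. DDX28 was at 276, 319.5 and 363 RPM in the SLEAR shRNA libraries and 285 RPM in Control, and the main row of DHX30 at 23.3, 24.1 and 36.6 RPM in the SLEAR shRNA libraries and 24.0 RPM in Control.

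DHX58, also known as LGP2, which tunes the sensing of viral RNA, was at 19.4, 18.9 and 4.57 RPM in the SLEAR shRNA libraries and 16.0 RPM in Control. DDX25, known from the testis, was at 33.3, 21.9 and 61.1 RPM in the SLEAR shRNA libraries and 29.3 RPM in Control. Neither went the same way in all 3 libraries. DDX11, a DNA helicase of sister chromatid cohesion, was at 26.4, 16.5 and 18.5 RPM in the SLEAR shRNA libraries and 13.4 RPM in Control. Its pseudogene copy DDX12P was at 20.4, 17.3 and 18.1 RPM in the SLEAR shRNA libraries and 16.6 RPM in Control. Both lay above Control in all 3 libraries, and both are uncertain because near-identical copies can share reads.

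The 17 rows with a mean below 10 RPM include several well known helicases. DHX9, also known as RNA helicase A, was at 0.284, 3.19 and 0 RPM in the SLEAR shRNA libraries and 2.74 RPM in Control. The spliceosomal DDX46 reached at most 3.46 RPM, DDX20 of the SMN complex 2.15 RPM, DDX56 1.99 RPM and DDX31 6.65 RPM in any library. DDX26B, a helicase by name alone, reached 6.65 RPM, the second rows of DHX30 and DHX8 7.89 and 5.18 RPM, and DDX60L 1.73 RPM. The rows of DDX3Y, the counterpart of DDX3X, were also low. The other 5 rows, those of DDX43, DDX59 and DHX57 and 2 further rows of DDX3X, stayed below 0.5 RPM. A row at 0 may still hold up to 3 reads by counting alone, or 0.426, 0.399 and 0.623 RPM for the hairpin libraries in order and 0.358 RPM for Control, so these 5 rows were at or close to the limit of detection.

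SLEAR shRNA-3 decided the direction of several helicases. Of the 41 rows, 6 were below 0.5 times the mean of SLEAR shRNA-1 and -2 in SLEAR shRNA-3 (14.6%, against 13.6% of all rows at that level), and 2 were above 2 times that mean (4.88%, against 8.56%). The low ones were DHX36, DDX21, DDX3X, DDX27, DHX58 and DDX1, and the high ones DDX25 and DDX5. The median absolute log2 difference was 0.42 when SLEAR shRNA-3 was set against the mean of the other pair, and 0.13 within that pair, compared with 0.50 and 0.17 over all rows at that level. The helicases thus share the departure of SLEAR shRNA-3 at about the size seen in the table as a whole. In SLEAR shRNA-3, 12 of the 58 helicase rows were at 0, next to 6890 of 16151 rows of the whole table.

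**Figure D4:**
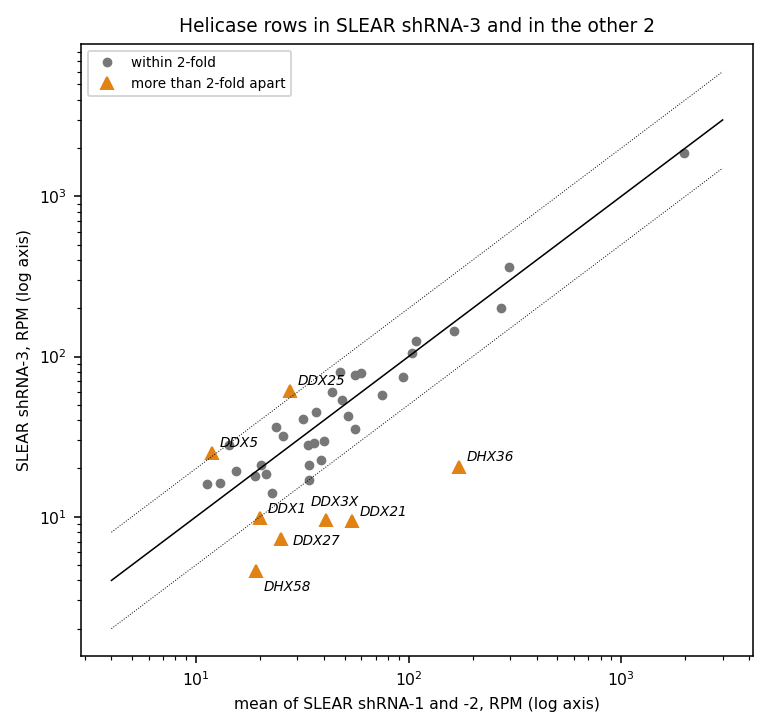
Level of the 41 helicase rows in SLEAR shRNA-3 (vertical, RPM, log axis) against the mean of SLEAR shRNA-1 and -2 (horizontal, RPM, log axis); the solid line marks equal levels and the dotted lines 2-fold. DHX36, DDX21, DDX3X, DDX27, DHX58 and DDX1 lie below the lower dotted line and DDX25 and DDX5 above the upper one.

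With SLEAR shRNA-3 left out and rows limited to a mean log2 value of at least 4, limma-trend called 2 of 38 helicases, 1 in each direction. Leaving out SLEAR shRNA-3 with the usual filter on low values called 0 of 12306 rows by limma-trend. Before adjustment, 788 higher and 887 lower rows had p under 0.05 by limma-trend with that filter. Both helicases had a limma-trend adjusted p of 0.360 there, so their limma-trend calls rest on the higher minimum level as well. In the fit with that minimum, DDX18 was 2.35-fold lower than Control, with a log2 difference of -1.23 ± 0.23 (SE) and an adjusted p of 1.35e-05. DDX41 was higher, with a log2 difference of 0.65 ± 0.23 (SE) and an adjusted p of 0.0436. Over the table, 7.11% of the 4851 rows were higher and 7.26% lower in that fit, so 1 of 38 each way (2.63%) is no excess. In this fit every row was given the spread fitted over the table for its mean level, whatever the gap between SLEAR shRNA-1 and -2 in that row. Limma-voom on estimated reads without SLEAR shRNA-3 used the usual filter and no higher minimum. By limma-voom DDX18 passed (adjusted p = 0.00124) and DDX41 did not (adjusted p = 0.120). In SLEAR shRNA-3 itself DDX18 lay below Control and DDX41 slightly below it, so of the pair only the direction of DDX18 was shared by the library that was left out.

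The transcript partners of the helicases gave no call either when all libraries were used. Of the 12 rows of other helicases of the same superfamily with a mean of at least 10 RPM, of which UPF1 holds 2, 2 rows lay above and 3 below Control in all 3 libraries. The same counts of rows were 4 and 5 of 18 for spliceosome partners and 8 and 5 of 28 for ribosome biogenesis partners. They were 1 and 3 of 14 for mRNA export partners, 0 and 2 of 6 for P-body and decapping partners, and 0 and 1 of 4 for the SMN complex. Over all rows at that level, 23.9% lay above Control in all 3 libraries and 26.2% below it. The median log2 differences of these lists lay between -0.20 and 0.02, and that of all rows at that level was -0.03.

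Among the ribosome biogenesis partners, FBL, the methyltransferase fibrillarin, was at 501, 508 and 484 RPM in the SLEAR shRNA libraries and 399 RPM in Control. BOP1, which joins the PeBoW complex, was at 20.3, 23.1 and 36.1 RPM in the SLEAR shRNA libraries and 14.2 RPM in Control. RRP1B, a nucleolar protein, lay below Control as DDX18 did, at 557, 528 and 546 RPM in the SLEAR shRNA libraries and 693 RPM in Control. In the fit without SLEAR shRNA-3 and with the higher minimum level, RRP1B passed (log2 difference -0.35, adjusted p = 0.0477) as did LTV1 and NOC3L, so that 3 of 28 partner rows were lower and 0 higher, against 7.26% and 7.11% of all rows in that fit. As for the helicases, this and the partner calls below are absent by limma-trend with the usual filter, where 0 rows passed. Partner calls by limma-voom without SLEAR shRNA-3 are not given here.

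SF3B1, the core subunit of the complex that holds the branch point, had a main row at 345, 332 and 167 RPM in the SLEAR shRNA libraries and 505 RPM in Control. Its second row was at 54.5, 47.2 and 40.7 RPM in the SLEAR shRNA libraries and 75.4 RPM in Control, so both rows lay below Control throughout. Both were lower in the fit without SLEAR shRNA-3 and with the higher minimum, with adjusted p values of 0.00116 and 0.0376, and were the 2 calls among 15 spliceosome partner rows. PRPF19, a ubiquitin ligase of the spliceosome, was on the other side at 440.2, 415 and 534 RPM in the SLEAR shRNA libraries and 354 RPM in Control. Of the TREX complex that works with DDX39B, THOC1 was at 97.7, 72.8 and 92.2 RPM in the SLEAR shRNA libraries and 141 RPM in Control. SARNP was at 21.6, 23.9 and 29.5 RPM in the SLEAR shRNA libraries and 12.2 RPM in Control, and THOC5 at 40.9, 35.9 and 21.0 RPM in the SLEAR shRNA libraries and 21.6 RPM in Control. In that same fit THOC1 was lower (adjusted p = 0.00105), and SARNP (adjusted p = 0.0359) and THOC5 (adjusted p = 0.0113) were higher, which makes 1 lower and 2 higher of 14 export partner rows, against 7.26% and 7.11% of all rows.

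UPF1, the helicase of nonsense-mediated decay, shows how rows of 1 gene can split. Its first row was at 154, 157 and 96.9 RPM in the SLEAR shRNA libraries and 96.2 RPM in Control, and its second at 77.0, 52.4 and 96.9 RPM in the SLEAR shRNA libraries and 96.2 RPM in Control. The 2 rows held equal values in SLEAR shRNA-3 and in Control and unequal ones in SLEAR shRNA-1 and -2. Their sum was 231, 209.9 and 194 RPM in the SLEAR shRNA libraries and 192 RPM in Control. In that fit the first row was called higher and the second lower, so neither direction is given for the gene. SKIV2L2, the exosome helicase, was at 20.4, 12.4 and 18.9 RPM in the SLEAR shRNA libraries and 25.5 RPM in Control. Among P-body partners EDC3 was at 10.8, 10.6 and 14.1 RPM in the SLEAR shRNA libraries and 19.9 RPM in Control, and CNOT1 at 82.7, 99.9 and 53.8 RPM in the SLEAR shRNA libraries and 114 RPM in Control. LSM14B and the SMN complex members STRAP, GEMIN5 and GEMIN6 had log2 differences between -0.34 and 0.36, with standard errors of 0.31 to 0.74.

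The base composition of the transcript ends moved with the differences. Across the 41 rows the Spearman correlation between the GC content of the last 500 bases and the log2 difference from Control was 0.30, 0.33 and 0.48 in SLEAR shRNA-1, -2 and -3. Over 5722 rows of the table at that level it was 0.33, 0.34 and 0.34. These are descriptions across genes, which share libraries and the 1 Control. Of the 8 helicases past counting error, those below Control had an end GC of 33.8% (DDX18), 32.6% (DHX29), 40.8% (DHX40), 44.8% (DDX17) and 45.8% (DDX19A). Those above Control had 56.2% (DDX39A), 52.6% (DDX51) and 45.2% (DDX24), so the sides met at DDX24 and DDX19A. The 13 rows with the lowest end GC (29.4% to 39.8%) had a median difference of SLEAR shRNA-3 from the mean of SLEAR shRNA-1 and -2 of -0.17, and the 13 with the highest (50.6% to 64.2%) of 0.32. The rows set apart in SLEAR shRNA-3 did not follow end GC alone. Of the 6 low ones, DDX21 had 29.4%, DHX36 32.9%, DDX3X 33.6%, DDX1 39.6%, DDX27 45.6% and DHX58 53.8%. The 2 high ones, DDX25 with 32.4% and DDX5 with 34.8%, also had low end GC. The part of base composition in these results was not tested.

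**Figure D5:**
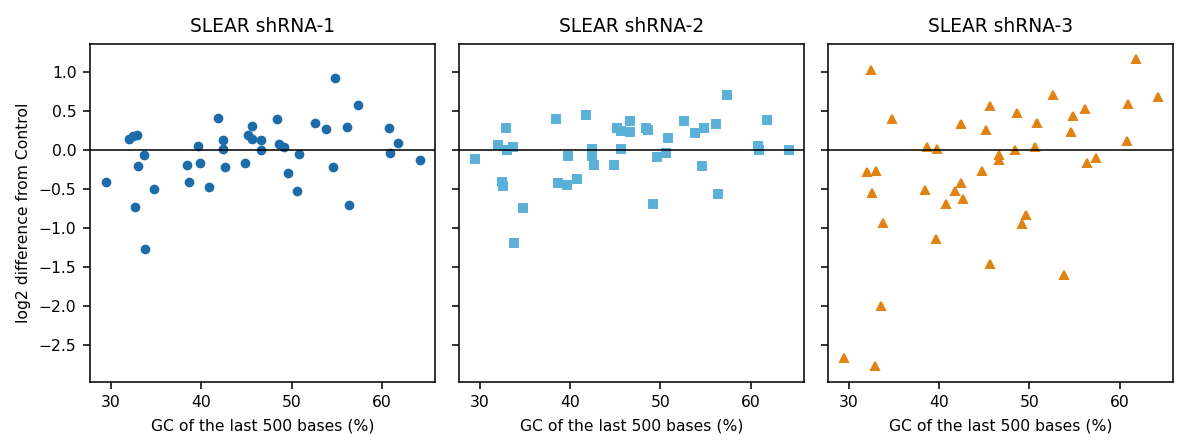
Log2(RPM + 1) difference from Control (vertical) of the 41 helicase rows in SLEAR shRNA-1, -2 and -3, against the GC content in percent of the last 500 bases of the transcript (horizontal), 1 point per row and 1 panel per library. In each panel the points drift upward with GC, and in SLEAR shRNA-3 the lowest points, below -2, have end GC of 29.4% to 33.6%.

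Reads near some transcript ends cannot be assigned to 1 gene if the counting ignored strand, which the sources used here do not state. For 10 of the 41 rows the last 500 bases overlap a gene on the other strand in GENCODE 29. They are DDX17 (with KDELR3), DDX24 (OTUB2), DDX39B (MCCD1), DDX19B, DDX52, DDX54 (CFAP73), DDX55 (EIF2B1), DHX16 (C6orf136), DHX32 (BCCIP) and DHX38 (PMFBP1). On the same strand, the end of DDX47 overlaps APOLD1 and that of DDX39B the readthrough transcript ATP6V1G2-DDX39B, and these reads are ambiguous whether or not strand was used. DDX18, DDX39A, DDX51, DHX40 and DHX29 have neither kind of overlap.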

How the data were processed

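Polyadenylated RNA of 4 Jurkat libraries (SLEAR shRNA-1, -2 and -3, and Control) was sequenced by MAPS on an Illumina instrument. The deposited table gives RPM, which the authors made with FastQC, Bowtie2, SAMtools and hg19, per the submitters' processing notes; the sources used here do not say how reads were assigned to or divided among rows. Identical rows averaging 1 RPM or more were merged (177 removed). Reads were estimated from the value of 1 read: 96.7% to 97.1% of values lay within 0.05 reads of a whole number, so RPM was kept as the unit tested. SLEAR shRNA was compared with Control by limma-trend (limma 3.58.1, R 4.3.3) on log2(RPM + 1), for rows of at least 1 RPM in at least 1 library, which understates changes of low rows; the threshold was an adjusted p of 0.05. The script was tested on simulated data only for rows with a mean log2 of at least 4, with equal spread in every library. That test did not cover the filter of the main comparison. Intervals of single ratios are exact 95% binomial intervals on estimated reads, which cover counting error only; no molecular identifiers are stated. Helicases with a mean of at least 10 RPM were named with the value in every library, and up to 3 partners per list with the smallest unadjusted p; some genes these rules name are left out of the text. The helicases, lists and tests were chosen with earlier results of these data known. Transcript sequence, end GC and overlaps came from GENCODE 29 (GRCh38), matched by RefSeq accession and used without coordinates because the files use hg19. Alternatives were other pseudocounts, filters, size factors, array weights, robust moderation, limma-voom, summed rows and leaving out each SLEAR shRNA library.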

Additional observations from a re-analysis of the deposited data

How the results depend on the processing

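With 1 Control, no setting that kept all libraries called any row, and the 3 fits that only left out 1 library called 0 as well. Counted over tested rows, 9 helicases lay above Control in all SLEAR shRNA libraries and 12 below. Leaving out 1 library gave between 11 and 18 above and between 14 and 20 below, since fewer libraries had to share a direction. With all libraries kept, a minimum mean log2 of 4 alone moved the median log2 difference of the helicases from -0.167 to -0.0439, over 38 rows. With SLEAR shRNA-3 left out and a minimum mean log2 of 4, 345 rows were higher and 352 lower, with 1 helicase each way, 16 helicases above Control in both libraries, and a median of 0.0225 against -0.167 over all tested helicases. With that minimum taken over the 3 libraries used, the counts were 347 and 346, again 1 and 1 helicase, 16 above and a median of 0.0303. Limma-voom on SLEAR shRNA-1, -2 and Control called 192 rows higher and 300 lower, with 1 helicase among the lower ones; 18 lay above Control and 19 below.

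Of the 41 named helicases, 29 kept the sign of their log2 difference in each alternative that gave them a value, of 16 run, and 12 reversed in at least 1. The higher minimum level left DDX54 and DHX34 without a value in 3 alternatives, DHX58 in 2, and DDX5 and DHX37 in 1.
With array weights the differences were -0.157 for DDX25, 0.163 for DDX27, -0.0212 for DDX49, 0.0823 for DDX55, 0.00247 for DDX6, 0.163 for DHX32, 0.158 for DHX36 and 0.184 for DHX58. In the limma-trend fits without SLEAR shRNA-3 they were, for these genes and DHX30, -0.113 (DDX25), 0.199 (DDX27), -0.0621 (DDX49), 0.105 (DDX55), 0.0148 (DDX6), -0.0182 (DHX30), 0.101 (DHX32), 0.238 (DHX36) and 0.247 (DHX58, which misses the mean log2 minimum over all libraries). By limma-voom without SLEAR shRNA-3 they were -0.124 (DDX25), 0.209 (DDX27), -0.0617 (DDX49), 0.106 (DDX55), 0.0150 (DDX6), -0.0178 (DHX30), 0.112 (DHX32), 0.240 (DHX36) and 0.260 (DHX58). Leaving out 1 library at a time gave ranges of -0.0561 to 0.431 for DDX10, -0.113 to 0.606 for DDX25, -0.656 to 0.199 for DDX27, -0.0621 to 0.345 for DDX49, -0.109 to 0.105 for DDX55, -0.205 to 0.0148 for DDX6, -0.0182 to 0.297 for DHX30, -0.356 to 0.101 for DHX32, -1.29 to 0.238 for DHX36, -0.213 to 0.0165 for DHX38, -0.691 to 0.247 for DHX58 and -0.0314 to 0.187 for DHX8.
The cause of these reversals was not tested. No paired analysis was possible because Control is 1 library without a number. Depth was lowest in SLEAR shRNA-3, and 1 Control leaves no measure of spread on its side.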
